A study of Mus musculus with 28 samples.

Results

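The transcripts of 9 genes of the complement system were followed in murine bone marrow-derived macrophages (BMDMs), out of 54532 genes in the count table. The 9 were taken as a list of symbols, placed on GRCm38 through the Ensembl identifiers in GENCODE: the 3 chains of C1q (C1qa, C1qb, C1qc), the central component C3, factor B (Cfb), properdin (Cfp), the C1 inhibitor (Serping1) and the anaphylatoxin receptors C3ar1 and C5ar1. All 9 were in the table and all had counts. Cultures grown from the marrow of wild-type C57/B6JB mice 8 to 12 weeks old, in medium with macrophage colony-stimulating factor (M-CSF), had received phosphate-buffered saline (control, 5 cultures), 10 µg/ml plasma-derived von Willebrand factor (VWF, 5 cultures) or 100 ng/ml bacterial lipopolysaccharide (LPS, 4 cultures). These 3 conditions were sampled at 3.5 h and again, in other cultures, at 16 h, which gives 28 cultures in 6 groups, all of them in medium with 1 mM CaCl2. The replicates are labelled as biological, and whether each came from its own mouse is not given in the sources used here.

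Complement is a cascade of blood and tissue proteins that tags surfaces for uptake and releases inflammatory peptides. C1q starts the classical pathway when it binds antibody or altered cell surfaces, all pathways meet at the cleavage of C3, and factor B and properdin build and hold together the convertase of the alternative pathway. The peptides C3a and C5a act through the receptors C3aR and C5aR1, and C1 inhibitor blocks the proteases that C1q sets in motion. Most complement in blood comes from the liver, whereas macrophages are a main source of C1q and properdin and also make C3 and factor B when stimulated.

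The 9 genes lie on 6 chromosomes of GRCm38, all on the minus strand. C1qa (ENSMUSG00000036887, 136895917 to 136898803), C1qc (ENSMUSG00000036896, 136889804 to 136893065) and C1qb (ENSMUSG00000036905, 136880129 to 136886187) are neighbours on chromosome 4. C3 (ENSMUSG00000024164, 57203970 to 57228136) and Cfb (ENSMUSG00000090231, 34856374 to 34862518) are on chromosome 17, Cfp (ENSMUSG00000001128, 20925454 to 20931555) on chromosome X and Serping1 (ENSMUSG00000023224, 84765387 to 84775444) on chromosome 2. C3ar1 (ENSMUSG00000040552, 122847138 to 122856161) is on chromosome 6 and C5ar1 (ENSMUSG00000049130, 16246743 to 16259540) on chromosome 7. Of the exon length of Cfb, 79.5% is also annotated as the same-strand transcript Gm20547, named here after its values were seen and listed at 0 counts in all 28 cultures; the other 8 members share no exon bases with another gene.

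Promoter sequences were taken from RefSeq (GRCm38.p6), where 6 of the 9 members matched, and 3 of them are shown: C3, which was called higher with both agonists at both times, and C1qb and Cfp, whose levels followed each other most closely of all member pairs over the cultures (Pearson r = 0.918). Each line holds the 250 bases before the gene's start, 5′ to 3′ on the strand of the gene, with motif matches in capitals. The windows are chr17:57228137-57228386 for C3, chr4:136886201-136886450 for C1qb and chrX:20931556-20931805 for Cfp, all on the minus strand, and none of them reaches into the annotated gene.
C3: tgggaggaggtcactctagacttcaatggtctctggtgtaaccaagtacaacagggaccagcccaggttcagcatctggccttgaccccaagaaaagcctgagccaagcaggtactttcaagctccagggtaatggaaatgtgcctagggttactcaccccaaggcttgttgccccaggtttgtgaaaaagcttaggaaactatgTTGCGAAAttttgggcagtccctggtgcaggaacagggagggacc
C1qb: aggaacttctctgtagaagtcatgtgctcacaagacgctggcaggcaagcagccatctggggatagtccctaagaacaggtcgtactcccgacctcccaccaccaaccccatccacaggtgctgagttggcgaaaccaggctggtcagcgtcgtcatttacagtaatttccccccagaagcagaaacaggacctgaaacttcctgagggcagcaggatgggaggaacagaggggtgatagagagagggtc
Cfp: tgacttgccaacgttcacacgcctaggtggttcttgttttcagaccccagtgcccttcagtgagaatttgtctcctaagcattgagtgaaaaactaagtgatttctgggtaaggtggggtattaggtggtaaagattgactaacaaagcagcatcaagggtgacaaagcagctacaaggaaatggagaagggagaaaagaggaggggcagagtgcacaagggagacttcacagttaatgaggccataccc
Both strands were searched for 5 short motifs: an NF-kB motif (GGGANTTTC), an interferon-stimulated response element core (GAAANNGAA), a gamma-activated site (TTCNNNGAA), a PU.1 motif (GAGGAAG) and a C/EBP motif (TTGCNNAA). The C3 window held 1 match, TTGCGAAA to the C/EBP motif, which begins 45 bases before the start, and the windows of C1qb and Cfp held none. Of all 32851 promoter windows of that length, 0.941% held the NF-kB motif, 7.13% the interferon element core, 7.02% the gamma-activated site, 10.6% the PU.1 motif and 9.56% the C/EBP motif.

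Total counts lay between 41131209 and 77699206 per culture, with a median of 52986574. Levels are given as CPM, the counts scaled to library size with TMM factors over all 28 cultures, listed in the order of replicate number. Where genes are compared with each other they are given as TPM, which divides by exon length and uses no TMM factor. Differences between groups in TPM are therefore not on the scale of those in CPM. The TMM factors ran from 0.745 in LPS 16 h replicate 4 to 1.245 in Control 3.5 h replicate 1. All 10 macrophage markers had counts in every group, with Lyz2 between 2998 and 42662 TPM and Cd68 between 366 and 3389 TPM. The 9 neutrophil and granulocyte markers summed to between 20.1 and 129 TPM, with S100a8 at 8.88 to 83.5 TPM and Ly6g at no more than 2 counts in any culture. The 5 dendritic cell markers summed to at most 1.68 TPM in controls and in VWF cultures at 16 h and to 7.41 to 12.4 TPM in the other groups, with Xcr1 reaching 11.5 TPM. The 4 endothelial markers summed to 9.28 to 20.0 TPM with LPS at 16 h, with Kdr reaching 16.6 TPM, and to at most 10.5 TPM elsewhere. The 4 B cell markers summed to at most 4.35 TPM with LPS at 16 h and to 5.95 to 21.1 TPM elsewhere, and the 4 T and NK cell markers to at most 0.596 TPM in any culture. The part of these cell types in the results was not tested. Stromal markers are given beside Serping1. Control 16 h replicate 5 stood apart from its group: 24.2% of 8867 genes differed by more than 2-fold from the mean of the other 4 cultures, and Lyz2 was at 5412 TPM against 24880.3 to 30867 TPM. LPS 16 h replicate 4 differed from its group in 14.8% of the genes, with Cd68 at 554 TPM against 1583 to 2126 TPM, and no other culture differed in more than 4.45%. Several results at 16 h are also given without these cultures.

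Within groups, the deviation of a culture from its group also followed exon length. Of the members, only C1qa and C3 were set beside this trend. Within groups, C1qa correlated with C1qc at 0.927, with Cfp at 0.747 and with C3 at −0.809 (Pearson), so others may move with it too. Spearman's rho between the deviation of 8867 genes and their exon length ran from −0.468 in VWF 16 h replicate 4 to 0.555 in VWF 3.5 h replicate 5. C1qa has a short exon length (1040 bases) and C3 a long one (5143 bases). The culture with the highest rho was the lowest in C1qa in 5 of 6 groups and the highest in C3 in 5 of 6 groups, and the culture with the lowest rho was the highest in C1qa in 4 of 6 groups and the lowest in C3 in 4 of 6 groups. Between groups, rho of the log2 fold changes with exon length was 0.02 for VWF against control at 3.5 h, −0.019 for VWF against control at 16 h, −0.174 for LPS against control at 3.5 h and 0.0482 for LPS against control at 16 h. It was larger for VWF against LPS at 3.5 h (0.264), from the early to the late time, both in VWF cultures (−0.265) and in controls (−0.319). The part of exon length in the results was not tested.

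A gene was tested where at least 1 culture of the comparison reached 10 TPM, and it is called higher or lower at an adjusted p below 0.05 with an absolute log2 fold change above 1 (quasi-likelihood test of edgeR, p-values adjusted by Benjamini-Hochberg over every gene tested). In VWF-treated cultures at 3.5 h, C3 was the 1 member called among 7 tested, higher than in controls; over all genes, 9.1% were called higher and 5.59% lower. At 16 h with VWF, 4 of 8 tested members were called higher (C1qa, C3, Cfb and Cfp) and 0 lower, against 4.55% higher and 4.15% lower over all genes. In LPS-treated cultures at 3.5 h, C3 was again the 1 member called among 7 tested, with 12.8% of all genes called higher and 11.8% lower. At 16 h with LPS, all 9 were tested, 4 were called higher (C3, Cfb, Serping1 and C3ar1) and C5ar1 lower, against 15.3% and 12.4% of all genes. VWF and LPS were set against the same control cultures, so the calls of the 2 agonists are not independent. At 16 h, C3 and Cfb passed the filter against control only through treated cultures, as did Serping1 with LPS. Their calls there add no support to these counts. The plot of log2 fold changes against control shows all of these values.

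**Figure D1:**
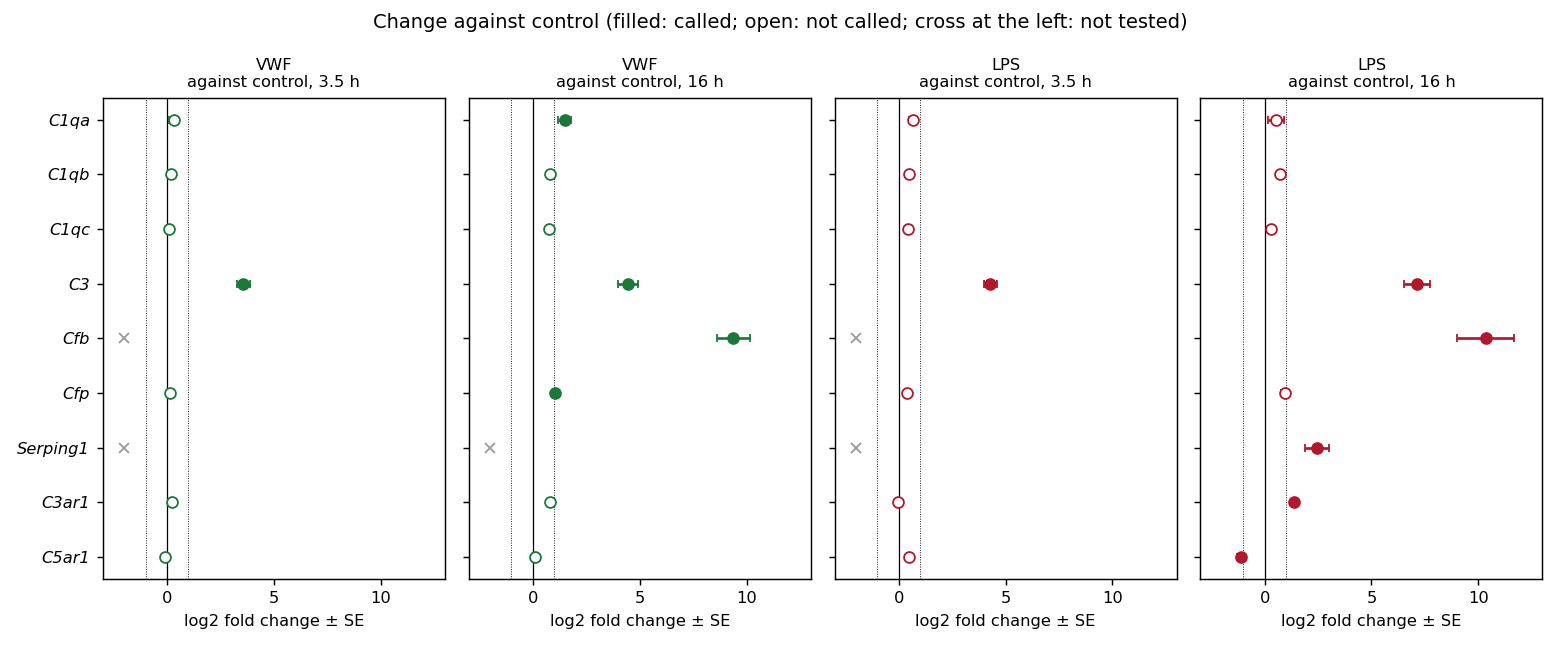
Log2 fold change (horizontal axis, bars are ± SE of the edgeR fit) of each member in VWF-treated and LPS-treated against control cultures at 3.5 h and 16 h (n = 5, 5, 4 and 4 treated against 5 control cultures). C3 was called in all 4 panels, at 3.56, 4.47, 4.28 and 7.11, C5ar1 lay at −1.12 with LPS at 16 h, and Cfb, with 2 counts in all 16 h controls, is drawn at a value that depends on the fit's handling of counts near 0.

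Between the 2 agonists at 3.5 h, 0 of 7 tested members were called by edgeR, while 4 had an adjusted p below 0.05 without the fold threshold, and DESeq2 called 0 as well. Over all genes in that comparison, 4.71% were called higher with VWF and 6.71% lower, with the fold threshold. At 16 h, C5ar1 was called higher with VWF than with LPS, and C3 and Serping1 lower, out of 9 tested, against 11.1% and 14.5% of all genes. From 3.5 h to 16 h, 1 of 8 members was called higher with VWF (Cfb), against 9.15% higher and 12.2% lower over all genes. With LPS, C3 and Cfb were called higher and C5ar1 lower out of 9, against 14.6% and 13.5%. Cfb over time with either agonist passed the filter only through the 16 h cultures, where it was higher. Serping1 between the agonists at 16 h passed it only through the LPS cultures, where it was higher. Those calls add no support to these counts. In controls, 0 of 7 tested members were called between the times in edgeR and 0 in DESeq2, against 4% and 5.09% of all genes. Without the fold threshold, 5 had an adjusted p below 0.05 in edgeR, all with lower levels at 16 h. The share of all genes without that threshold is not given here, for this comparison or for the agonists at 3.5 h. The effect of VWF differed between the times for 1 of 8 members (C1qa, called higher at 16 h), against 5.69% higher and 7.77% lower of all genes, and the effect of LPS for 3 of 9 (C3 and C3ar1 higher, C5ar1 lower), against 13.5% and 12.8%. The median log2 fold change of the tested members was 0.19, 0.93, 0.48 and 0.95 for VWF at 3.5 h and 16 h and LPS at 3.5 h and 16 h against control, and that of all tested genes lay between −0.03 and −0.01. The member medians at 16 h include C3 and Cfb, and Serping1 with LPS, which passed the filter only through treated cultures. They are therefore raised by the filter and are no support for a shift of the members.

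**Figure D2:**
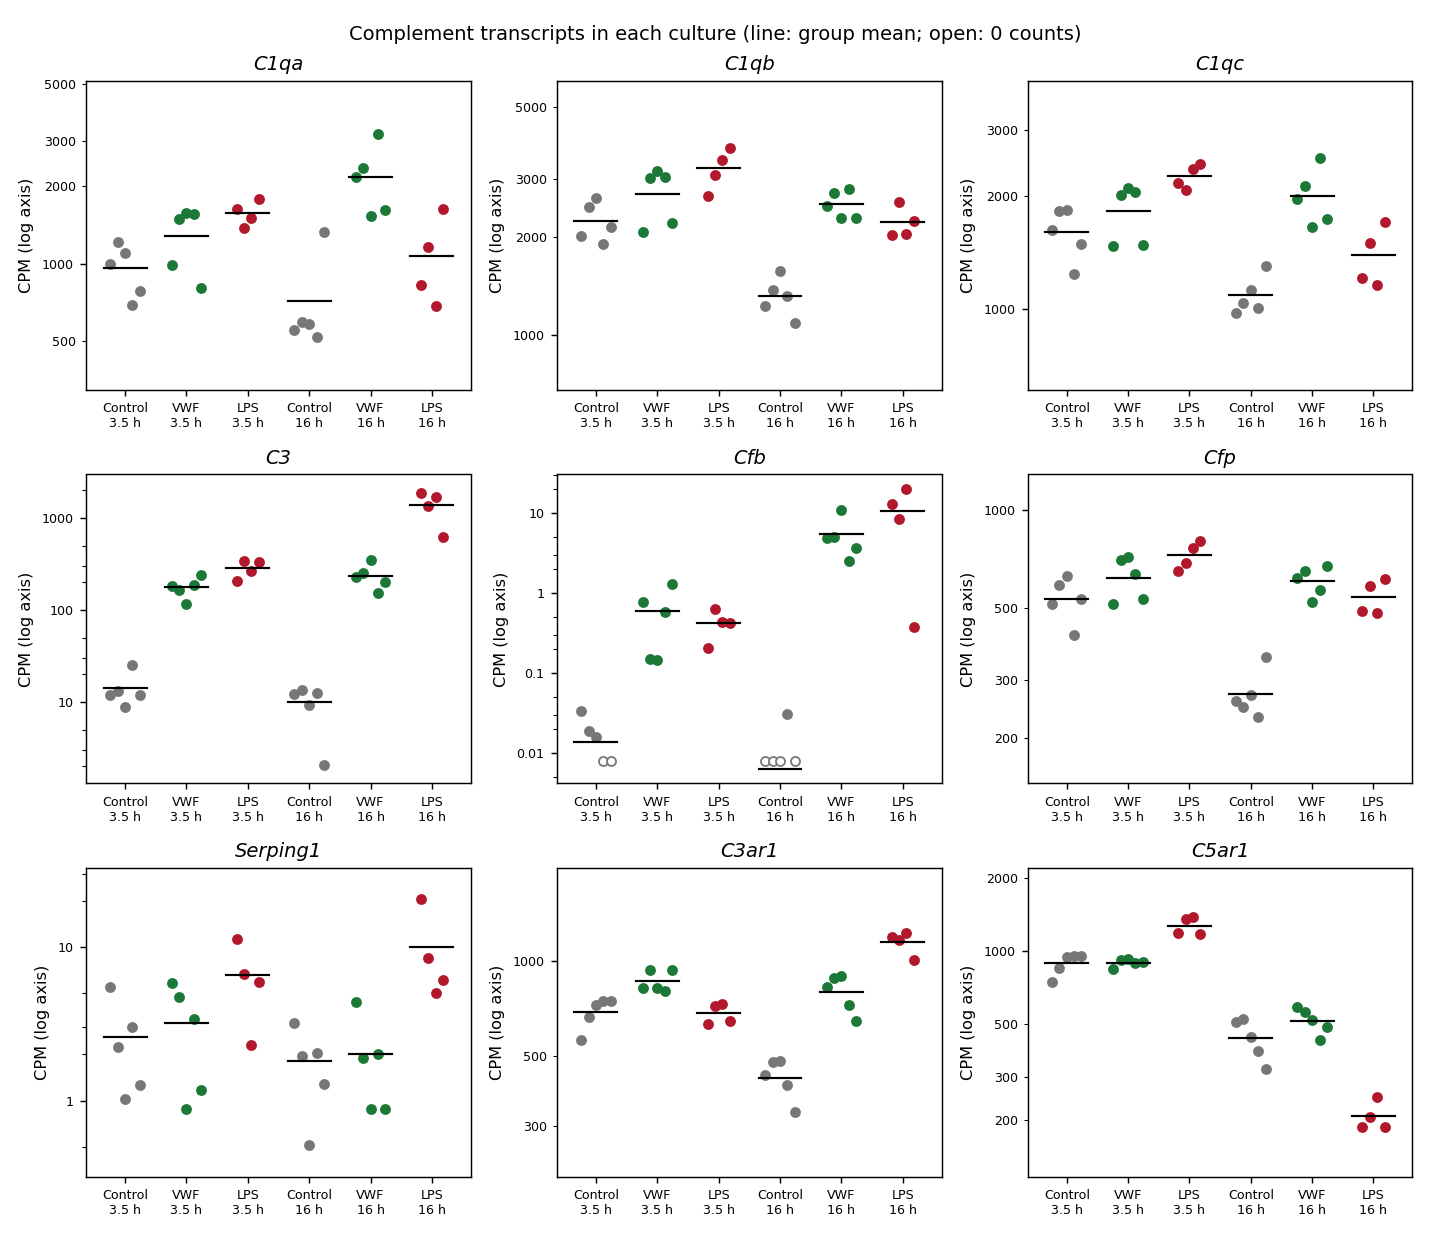
CPM with TMM factors (log axes) of the 9 members in each of the 28 cultures, by group, with the group mean as a line and cultures at 0 counts as open circles at the lower edge. C3 separated treated from control cultures at both times, C5ar1 was lowest in the 4 LPS cultures at 16 h (187 to 249 CPM), and Control 16 h replicate 5 lay away from its group in C1qa (1327 CPM) and C3 (2.08 CPM).

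The chains of C1q were the most abundant of the 9 transcripts. All 3 lay above controls with VWF at 16 h, and 1 of them, C1qa, passed the fold threshold. C1qa encodes the A chain, and at 3.5 h it measured 997, 1217, 1104, 694 and 781 CPM in controls, 985, 1491, 1577, 1553 and 805 CPM with VWF and 1626, 1376, 1507 and 1791 CPM with LPS. The VWF cultures overlapped the controls and all LPS cultures lay above them. At 16 h, controls measured 552, 593, 586, 519 and 1327 CPM, VWF cultures 2168, 2361, 1527, 3196 and 1617 CPM and LPS cultures 829, 1159, 683 and 1629 CPM. Each VWF culture lay above each control, replicate 5 included, whereas the LPS cultures overlapped the controls. The log2 fold change with VWF was 0.33 (SE 0.21, adjusted p = 0.253) at 3.5 h and 1.49 (SE 0.32, adjusted p = 0.00505) at 16 h. Without Control 16 h replicate 5 the latter was 1.85, with an adjusted p of 6.64e-05. In bulk RNA, a change in the number of cells that carry a transcript and a change in the RNA per cell cannot be told apart.

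The VWF effect on C1qa differed between the times by 1.19 on the log2 scale (SE 0.40, adjusted p = 0.028). That call was lost in 9 of the 20 fits with 1 culture left out: without Control 16 h replicate 1, 2, 3 or 4, Control 3.5 h replicate 2, VWF 3.5 h replicate 1 or 5, or VWF 16 h replicate 2 or 4. The values then ran down to 0.97 (adjusted p = 0.0682, edgeR), and without Control 16 h replicate 5 the value was 1.54. With LPS, C1qa was not called at either time: 0.67 (SE 0.17, adjusted p = 0.00556) at 3.5 h and 0.54 (SE 0.37, adjusted p = 0.247) at 16 h. Without Control 16 h replicate 5 the value at 16 h was 0.92 and without LPS 16 h replicate 4 it was 0.25, and without both it was 0.63 (SE 0.15, adjusted p = 0.0044). Against LPS at 16 h, VWF cultures were higher in C1qa by 0.99 (SE 0.31, adjusted p = 0.0184), just under the fold threshold. Between these 2 groups the deviations of all 4 same-numbered pairs correlated above 0.1, but whether the cultures were paired is not given. With the replicate number as a block C1qa was called, at 1.12 (adjusted p = 7.27e-06, edgeR).

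C1qb and C1qc encode the B and C chains. At 16 h, C1qb measured 1228, 1369, 1569, 1311 and 1083 CPM in controls, 2483, 2723, 2274, 2800.4 and 2281 CPM with VWF and 2027, 2556, 2043 and 2232 CPM with LPS. All treated cultures lay above all controls. The log2 fold changes of C1qb were 0.83 (SE 0.12, adjusted p = 0.000358) with VWF and 0.72 (SE 0.13, adjusted p = 0.000846) with LPS, both under the fold threshold. C1qc measured 974, 1037, 1125, 1006 and 1302 CPM in controls, 1958, 2127, 1649.8, 2526 and 1738 CPM with VWF and 1209.8, 1502, 1155 and 1699.8 CPM with LPS. The VWF cultures lay above the controls, at 0.77 (SE 0.14, adjusted p = 0.00225), and the LPS cultures overlapped them, at 0.32 (SE 0.16, adjusted p = 0.129). Without Control 16 h replicate 5 the LPS value of C1qc was 0.40 (adjusted p = 0.0365), and without that culture and LPS 16 h replicate 4 it was 0.29 (adjusted p = 0.0255). At 3.5 h, the group means of C1qb were 2227 ± 308 CPM in controls, 2706 ± 527 CPM with VWF (SD, n = 5 each) and 3238 ± 469 CPM with LPS (SD, n = 4), and those of C1qc were 1600.2 ± 248, 1820.0 ± 317 and 2254 ± 166 CPM. At that time VWF gave 0.19 (SE 0.13, adjusted p = 0.286) for C1qb and 0.096 (SE 0.14, adjusted p = 0.638) for C1qc, and LPS gave 0.49 (SE 0.13, adjusted p = 0.00537) and 0.45 (SE 0.13, adjusted p = 0.00996).

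The size of these LPS differences, and the direction of some, rests on the scaling. Scaled by library size alone, the genes tested had a median log2 fold change of −0.55 for LPS against control at 3.5 h and −0.59 at 16 h, and on that scale the log2 fold changes with LPS at 3.5 h were 0.14 for C1qa, −0.042 for C1qb and −0.086 for C1qc, and at 16 h 0.010 for C1qa, 0.15 for C1qb and −0.24 for C1qc. Those with VWF at 16 h were 1.46 for C1qa, 0.75 for C1qb and 0.71 for C1qc. The difference between the VWF effects at the 2 times was 0.67 (SE 0.18, adjusted p = 0.00568) for C1qb and 0.70 (SE 0.21, adjusted p = 0.0124) for C1qc, under the fold threshold.

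Controls themselves had lower C1q levels at 16 h than at 3.5 h. The log2 difference was −0.71 (SE 0.11, adjusted p = 0.000765) for C1qb, −0.50 (SE 0.14, adjusted p = 0.0144) for C1qc and −0.35 (SE 0.29, adjusted p = 0.351) for C1qa, and without Control 16 h replicate 5 it was −0.73 for C1qa (adjusted p = 0.00308). In VWF cultures, C1qb and C1qc differed between the times by −0.052 and 0.19 (adjusted p = 0.744 and 0.268). C1qa in VWF cultures was higher at 16 h than at 3.5 h by 0.82 (SE 0.24, adjusted p = 0.0108), under the fold threshold.

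Per length, the 3 chains summed to 12445 ± 1025 TPM in controls, 12263 ± 1343 TPM with VWF (SD, n = 5 each) and 11278 ± 762 TPM with LPS (SD, n = 4) at 3.5 h. At 16 h the sum was 7513 ± 631 TPM in controls, 14705 ± 1769 TPM with VWF and 7818 ± 555 TPM with LPS. These sums use no TMM factors, so they are not on the scale of the CPM and log2 fold changes given above for each chain. The protein holds the 3 chains in equal number, whereas C1qb had the highest mean TPM in all groups. The ratio of C1qa to C1qb TPM was between 0.382 and 0.532 in the 10 control and VWF cultures at 3.5 h, and 0.640, 0.465, 0.458 and 0.499 in the LPS cultures of that time. With VWF at 16 h it was 0.914, 0.907, 0.703, 1.19 and 0.742. Controls at 16 h had ratios of 0.47, 0.453, 0.391, 0.414 and, in replicate 5, 1.28, and LPS cultures 0.428, 0.474, 0.349 and, in replicate 4, 0.763. Leaving aside replicate 5, all VWF cultures at 16 h had a higher ratio than the controls of that time. The ratio of C1qc to C1qb stayed between 0.319 and 0.508 in 27 of the 28 cultures and was 0.678 in Control 16 h replicate 5.

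**Figure D3:**
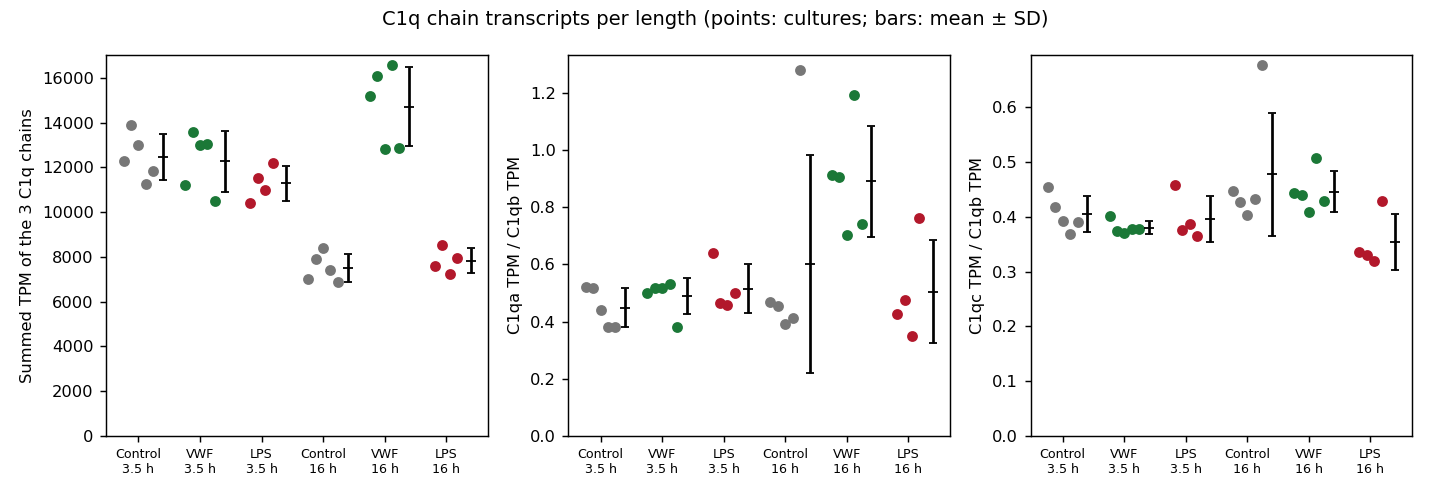
Summed TPM of C1qa, C1qb and C1qc (left) and the ratios of C1qa to C1qb (middle) and C1qc to C1qb (right) in each culture, with mean ± SD beside each group (n = 5 for control and VWF, 4 for LPS). The sum was 14705 ± 1769 TPM with VWF and 7513 ± 631 TPM in controls at 16 h, and the middle panel shows VWF cultures at 0.703 to 1.19 and Control 16 h replicate 5 at 1.28.

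C3, the component on which all complement pathways converge, rose with both agonists at both times. At 3.5 h it measured 11.8, 13.1, 8.84, 25.5 and 12.0 CPM in controls, 184, 164, 117, 186 and 238 CPM with VWF and 207, 338, 264 and 335 CPM with LPS. At 16 h the values were 12.2, 13.4, 9.14, 12.5 and 2.08 CPM in controls, 227, 251, 348, 154 and 202 CPM with VWF and 1864, 1355, 1718 and 624 CPM with LPS. At both times each treated culture lay above each control, and at 16 h each LPS culture also lay above each VWF culture. With VWF, the log2 fold change was 3.56 (SE 0.30, adjusted p = 2.06e-06) at 3.5 h and 4.47 (SE 0.46, adjusted p = 4.68e-05) at 16 h. With LPS it was 4.28 (SE 0.30, adjusted p = 2.70e-07) at 3.5 h and 7.11 (SE 0.61, adjusted p = 7.87e-06) at 16 h. At 16 h without Control 16 h replicate 5, the values were 4.21 for VWF and 6.85 for LPS, and without that culture and LPS 16 h replicate 4, LPS gave 7.09 (SE 0.19, adjusted p = 2.97e-09). In controls at 16 h, C3 was at 0.943 to 8.67 TPM, below the 10 TPM filter. It was tested against control at that time only through the treated cultures.

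The agonists parted in C3 at the later time. At 3.5 h C3 was −0.69 with VWF relative to LPS on the log2 scale (SE 0.21, adjusted p = 0.0185), with overlapping cultures and under the fold threshold. At 16 h it was −2.59 (SE 0.33, adjusted p = 8.27e-05). From 3.5 h to 16 h, C3 rose in LPS cultures by 2.35 (SE 0.33, adjusted p = 0.000278), while in VWF cultures it differed by 0.46 (SE 0.22, adjusted p = 0.0913) and in controls by −0.50 (SE 0.44, adjusted p = 0.377). The LPS effect grew between the times by 2.85 (SE 0.61, adjusted p = 0.000893), and the VWF effect differed by 0.95 (SE 0.51, adjusted p = 0.178). As a level per length, C3 reached 587 ± 282 TPM (SD, n = 4) with LPS at 16 h, from 9.40 ± 5.11 TPM (SD, n = 5) in controls at 3.5 h.

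Of the alternative pathway genes, Cfb was close to 0 in controls and rose with both agonists by 16 h, whereas Cfp was present in all groups and at 16 h lay above controls with both agonists, past the fold threshold with VWF and just under it with LPS. Cfb encodes factor B, the serine protease of the alternative pathway convertase. The 10 control cultures held 2, 1, 1, 0 and 0 counts of it at 3.5 h and 0, 0, 0, 2 and 0 counts at 16 h. VWF cultures held 43, 7, 7, 25 and 99 counts at 3.5 h and 311, 413, 672, 144 and 198 counts at 16 h, and LPS cultures 8, 26, 16 and 15 counts and then 609, 444, 831 and 15 counts. Each treated culture lay above each control of its time. LPS 16 h replicate 4 lay within the range of the 3.5 h LPS cultures.

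Because the controls held so few counts, the change of Cfb is given as a ratio of pooled counts with an exact 95% interval that covers counting error only. At 16 h the ratio to control was 960 with VWF (265 to 7936, 1738 against 2 counts) and 1853 with LPS (512 to 15311, 1899 against 2 counts). Both differences were called at 16 h (adjusted p = 9.26e-06 with VWF and 0.000132 with LPS), but Cfb reached the 10 TPM filter only in treated cultures, so that a tested Cfb had to differ and its calls add no support to the counts of members called. At 3.5 h, where no culture reached 10 TPM and Cfb was not tested, the ratio was 51.0 with VWF (19.6 to 189, 181 against 4 counts) and 32.2 with LPS (12.0 to 122, 65 against 4 counts). With no filter on low counts, Cfb was called at 3.5 h for both agonists (adjusted p = 7.81e-05 with VWF and 2.01e-05 with LPS). In the comparisons with VWF at 16 h against controls or against VWF at 3.5 h, Cfb passed the filter only through VWF 16 h replicate 3, at 11.5 TPM, and without that culture it was not tested there. In the comparison of LPS with control at 16 h it passed through LPS 16 h replicates 1 and 3 (10.6 and 16.7 TPM).

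Between the times, Cfb rose with VWF by 3.19 (SE 0.60, adjusted p = 0.000625). With LPS it rose by 4.69 (SE 0.99, adjusted p = 0.00294), although replicate 4 overlapped the earlier cultures, and without that culture the value was 5.10. VWF and LPS did not differ past the threshold at 16 h (−0.99, SE 0.78, adjusted p = 0.298), where without LPS 16 h replicate 4 Cfb was called lower with VWF, at −1.39 (SE 0.44, adjusted p = 0.0186). The change of the agonist effects with time was not called for Cfb with VWF (4.14, SE 1.87, adjusted p = 0.103) or LPS (5.61, SE 2.36, adjusted p = 0.0596), and with LPS it was called without LPS 16 h replicate 4 (6.02, adjusted p = 0.00283) and in DESeq2 for both agonists. Per length, Cfb stayed low, at 5.42 ± 3.58 TPM with VWF (SD, n = 5) and 8.43 ± 6.99 TPM with LPS (SD, n = 4) at 16 h.

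Cfp encodes properdin, which stabilizes the alternative pathway convertase and is made by myeloid cells. At 16 h it measured 258, 249, 269.9, 232 and 354 CPM in controls, 616, 648, 519, 565 and 672 CPM with VWF and 487, 585, 482 and 611 CPM with LPS. All treated cultures lay above all controls. VWF gave 1.03 (SE 0.13, adjusted p = 0.000164), a call that lay at the fold threshold: scaled by library size alone it was 0.99, without Control 16 h replicate 4 or VWF 16 h replicate 5 it was 0.98 or just under 1.00, and without Control 16 h replicate 5 it was 1.15. LPS gave 0.95 (SE 0.16, adjusted p = 0.000688), just under that threshold, and was called without Control 16 h replicate 5 (1.08) or LPS 16 h replicate 3 (1.02), without both outlying cultures (1.01) and with no filter (1.04). Scaled by library size alone the LPS value was 0.40. Between VWF and LPS at 16 h, Cfp differed by 0.13 (SE 0.12, adjusted p = 0.369).

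At 3.5 h, Cfp measured 512, 586, 624, 412 and 533 CPM in controls, 513, 702, 713, 634 and 531 CPM with VWF and 650.2, 684, 762 and 800.1 CPM with LPS. The VWF cultures overlapped the controls, at 0.13 (SE 0.12, adjusted p = 0.468), and the LPS cultures lay above them, at 0.39 (SE 0.12, adjusted p = 0.0146), which turned to −0.14 with scaling by library size. The control level was lower at 16 h than at 3.5 h (−0.91, SE 0.15, adjusted p = 0.00105), and without Control 16 h replicate 5 that difference was called (−1.04). VWF cultures differed by 0.020 (SE 0.11, adjusted p = 0.885) between the times. The effect of VWF was larger at 16 h by 0.93 (SE 0.19, adjusted p = 0.000583) and that of LPS by 0.56 (SE 0.20, adjusted p = 0.025), both under the fold threshold.

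Serping1, the C1 inhibitor, rose with LPS at 16 h and was scarce in all groups. It measured 5.50, 2.24, 1.03, 3.04 and 1.26 CPM in controls at 3.5 h, 5.81, 4.72, 0.888, 3.41 and 1.18 CPM with VWF and 11.4, 6.66, 2.31 and 5.91 CPM with LPS. At 16 h it measured 3.22, 1.97, 0.511, 2.04 and 1.29 CPM in controls, 4.41, 1.91, 0.883, 2.00 and 0.881 CPM with VWF and 20.6, 8.55, 5.01 and 6.14 CPM with LPS. The LPS cultures at 16 h lay above all control and VWF cultures of that time, and the other groups overlapped. LPS gave 2.46 (SE 0.58, adjusted p = 0.00529) at 16 h, and VWF was lower than LPS, at −2.36 (SE 0.59, adjusted p = 0.00638). In LPS cultures the later time differed from the earlier by 0.68 (SE 0.58, adjusted p = 0.339), and the LPS effect differed between the times by 1.18 (SE 0.84, adjusted p = 0.262), neither of them called. Serping1 passed the filter only through LPS 16 h replicate 1 (20.4 TPM), so that its call adds no support to the counts of members called, without this culture it was not tested, and in comparisons without the LPS group at 16 h it was not tested at all. With no filter, VWF against control gave 0.24 at 3.5 h (adjusted p = 0.848) and 0.12 at 16 h (adjusted p = 0.920), and LPS against control at 3.5 h gave 1.31 (adjusted p = 0.161). Under edgeR's own filter the latter was 1.35 and called (adjusted p = 0.0387).

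Serping1 also moved with markers of stromal cells, which make C1 inhibitor. All 7 stromal markers had counts in each group, with Lum at 0 in some cultures and Col1a1 between 1.37 and 81.1 TPM. Their summed level was 18.7 to 120 TPM in controls, 17.8 to 154 TPM with VWF and 12.5 to 50.1 TPM with LPS at 3.5 h, and 4.34 to 68.1, 20.6 to 98.6 and 14.8 to 92.1 TPM in the same order at 16 h. In 5 of the 6 groups the culture highest in Serping1 was also the highest in the stromal sum, and in 4 of the 6 the lowest was the same, with Serping1 in TPM. With Serping1 in CPM the lowest was the same in 3 of the 6. Replicate 1 was highest in Serping1 in all 6 groups. The range of the stromal sum in LPS cultures at 16 h lay within that of the VWF cultures, apart from its lowest culture, while their Serping1 levels in CPM did not overlap. In TPM, VWF 16 h replicate 1 (5.35 TPM) lay above LPS 16 h replicates 3 and 4 (4.97 and 4.67 TPM). The part of stromal cells in the Serping1 result was not tested.

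**Figure D4:**
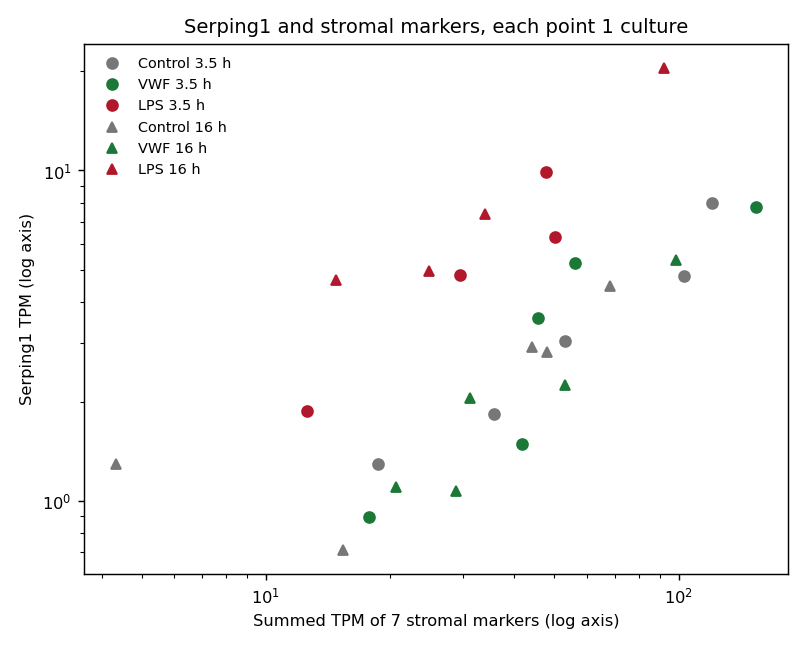
Serping1 TPM (vertical, log axis) against the summed TPM of 7 stromal markers (horizontal, log axis), 1 point per culture, circles at 3.5 h and triangles at 16 h. The LPS cultures at 16 h (stromal sum 14.8 to 92.1 TPM) lie above control and VWF cultures of that time with like stromal sums.

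The receptors for the 2 anaphylatoxins moved in opposite directions with LPS at 16 h. C3ar1, the receptor of C3a, measured 436, 479, 481, 406 and 333 CPM in controls at 16 h, 827, 882, 897, 726 and 646 CPM with VWF and 1194, 1169, 1229.8 and 1009 CPM with LPS. In CPM the 3 groups did not overlap, with controls lowest and LPS highest, while in TPM the VWF cultures (401 to 605 TPM) overlapped the LPS cultures (414 to 658 TPM). LPS gave 1.40 (SE 0.12, adjusted p = 8.62e-06), and VWF gave 0.78 (SE 0.13, adjusted p = 0.000897), under the fold threshold. On library size alone the LPS value was 0.83, no longer past that threshold. VWF against LPS was −0.56 (SE 0.12, adjusted p = 0.00214), and −0.11 (adjusted p = 0.497) with scaling by library size. Without Control 16 h replicate 5 and LPS 16 h replicate 4, LPS against control gave 1.38.

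At 3.5 h, C3ar1 measured 562, 666, 727, 747 and 748 CPM in controls, 821, 933, 823, 801 and 933 CPM with VWF and 632, 721, 733 and 646 CPM with LPS. VWF cultures lay above all controls, by 0.24 (SE 0.09, adjusted p = 0.0473), under the fold threshold, and LPS cultures overlapped controls, at −0.054 (SE 0.09, adjusted p = 0.629). Scaled by library size alone, the VWF value was 0.027 (adjusted p = 0.825) and the LPS value −0.59 (adjusted p = 0.000194). The LPS effect on C3ar1 differed between the times, by 1.47 (SE 0.15, adjusted p = 4.17e-07). For VWF the difference between the times was 0.58 (SE 0.15, adjusted p = 0.00494). In LPS cultures C3ar1 was higher at 16 h than at 3.5 h by 0.82 (SE 0.10, adjusted p = 0.000113), and in controls it was lower (−0.64, SE 0.11, adjusted p = 0.0011), both under the fold threshold.

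C5ar1, the main receptor of C5a, fell with LPS at 16 h. At 3.5 h it measured 742, 849.8, 947, 954 and 957 CPM in controls, 838, 916, 929, 889.7 and 901 CPM with VWF and 1180.2, 1356, 1375 and 1176 CPM with LPS. At 16 h it measured 510.2, 522, 440.3, 385 and 326 CPM in controls, 585, 559.9, 517, 428 and 484 CPM with VWF and 187, 206, 249 and 187 CPM with LPS. The LPS cultures were the highest at 3.5 h and the lowest at 16 h, without overlap with either other group at either time, and the VWF cultures overlapped the controls at both. LPS gave 0.48 (SE 0.09, adjusted p = 0.00107) at 3.5 h, under the fold threshold and −0.063 with scaling by library size, and −1.12 (SE 0.15, adjusted p = 0.000183) at 16 h. VWF gave −0.074 (SE 0.07, adjusted p = 0.478) at 3.5 h and 0.12 (SE 0.14, adjusted p = 0.605) at 16 h.

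The LPS effect on C5ar1 differed between the times by −1.57 (SE 0.18, adjusted p = 1.23e-06), whereas for VWF that difference was 0.23 (SE 0.15, adjusted p = 0.289). C5ar1 was lower at 16 h than at 3.5 h in every group: it fell in LPS cultures (−2.56, SE 0.12, adjusted p = 5.98e-07), and the values under the fold threshold were −0.75 (SE 0.09, adjusted p = 2.25e-05) with VWF and −0.98 (SE 0.13, adjusted p = 0.000256) in controls. Against LPS, VWF cultures were lower in C5ar1 at 3.5 h, at −0.52 (SE 0.08, adjusted p = 0.000469), and higher at 16 h, at 1.29 (SE 0.12, adjusted p = 9.40e-06). Leaving out any 1 culture left the LPS value at 16 h between −1.20 and −1.05, and without both Control 16 h replicate 5 and LPS 16 h replicate 4 it was −1.15.

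**Figure D5:**
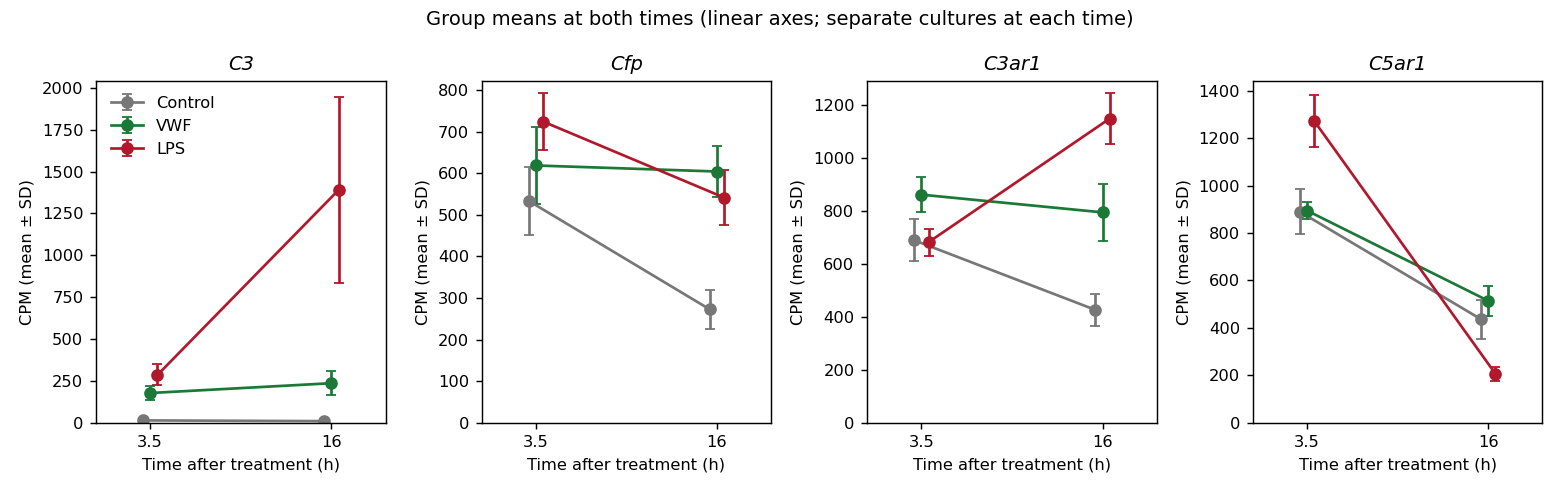
Mean CPM ± SD of C3, Cfp, C3ar1 and C5ar1 at 3.5 h and 16 h (linear axes from 0, n = 5 for control and VWF, 4 for LPS, separate cultures at each time). The LPS line rises for C3 (286 to 1390.2 CPM) and C3ar1 (683 to 1150.2 CPM) and falls for C5ar1 (1272 to 207 CPM), and the VWF and control lines part for Cfp (604 against 273 CPM at 16 h).

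Compared per length, C1qb had the highest mean in all 6 groups, with a range that overlapped C1qa in controls and VWF cultures at 16 h, from 3772 ± 891 TPM in controls at 16 h to 6716 ± 413 TPM in controls at 3.5 h (SD, n = 5 each). C1qa and C1qc followed in every group, and their ranges overlapped each other in controls and VWF cultures at 3.5 h, in controls at 16 h and in LPS cultures at 16 h. C5ar1, Cfp and C3ar1 came next at 3.5 h, between 318 and 1147 TPM, and C5ar1 and Cfp overlapped in all 3 groups. C3, Serping1 and Cfb were the lowest in control and VWF groups at both times, and C3 reached 127 ± 45.3 TPM with VWF at 16 h. With LPS at 16 h the order differed: C3 (587 ± 282 TPM) overlapped both Cfp (647 ± 22.8 TPM) above it and C3ar1 (564 ± 112 TPM) below it, and C5ar1 (170 ± 39.3 TPM, SD, n = 4) came after them.

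Ordered by group in CPM, C3 was highest in LPS cultures at 16 h without overlap with the next group, and LPS at 3.5 h, VWF at 16 h and VWF at 3.5 h followed with overlapping ranges above both control groups. C5ar1 was highest with LPS at 3.5 h, then in VWF and control cultures at 3.5 h, which overlapped, then in VWF and control cultures at 16 h, which overlapped, and lowest with LPS at 16 h. For C3ar1, LPS at 16 h was highest and controls at 16 h lowest, both without overlap with their neighbours, and between them came VWF at 3.5 h, VWF at 16 h, controls at 3.5 h and LPS at 3.5 h, where each overlapped the next while VWF at 3.5 h lay above the last 2. Controls at 16 h had the lowest mean for 8 of the 9 members and the second lowest for C5ar1. Of those 8, only C1qb, Cfp and C3ar1 had no overlap with the next group.

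The genes whose log2 CPM followed each member most closely over the 28 cultures, among 8867 genes, are given with Pearson's r as a description, since the cultures share 6 groups. C1qa was closest to Manf (0.925), C1qc (0.896) and Tmsb4x (0.894), C1qb to Itm2b (0.937), Ms4a7 (0.922) and Cfp (0.918), and C1qc to Ms4a7 (0.906), C1qa and C1qb (0.886). For Cfp the closest were Ms4a7 (0.966), C1qb and Tmem176a (0.901). C3 was closest to Phf11d (0.976), the ceruloplasmin gene Cp (0.975) and Slfn1 (0.975), and Cfb to the argininosuccinate synthase gene Ass1 (0.943), Ly6i (0.918) and the haptoglobin gene Hp (0.916). Serping1 followed the activin subunit gene Inhba (0.891) and Timp1 (0.862), which codes for an inhibitor of metalloproteinases. C3ar1 followed Slc7a8 (0.974), Ms4a4a (0.951) and Aoah (0.939), and C5ar1 followed Suz12 (0.968), Twistnb (0.966) and Qk (0.957). Among the members, C1qa and C3 correlated at 0.388 over all cultures and at −0.809 within groups, where the deviations also followed exon length as described above, and C3ar1 and C5ar1 at −0.164 over all cultures and 0.768 within groups.

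The rest of the system was followed in 45 further complement genes, of which 10 to 12 passed the filter in a comparison. With VWF, 1 of 12 tested was called higher and 1 lower at 3.5 h, and 2 of 11 higher and 1 lower at 16 h. Over all genes, 9.1% were called higher and 5.59% lower with VWF at 3.5 h, and 4.55% and 4.15% at 16 h. With LPS, 1 of 12 was called higher at 3.5 h, and 1 of 11 higher and 5 lower at 16 h. Over all genes, 12.8% were called higher and 11.8% lower with LPS at 3.5 h, and 15.3% and 12.4% at 16 h. None of the 8 genes for factor D and the terminal components passed the filter in these 4 comparisons. The median log2 fold change of those tested was −0.03, −0.06, −0.07 and −0.36 in the same order.

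C1ra, which encodes a protease of the C1 complex, was called higher in all 4. It measured 5.31 ± 0.481 CPM in controls, 11.6 ± 1.66 CPM with VWF and 24.8 ± 2.96 CPM with LPS at 3.5 h, and 4.00 ± 0.729, 24.9 ± 4.60 and 24.6 ± 3.78 CPM at 16 h. The log2 fold changes were 1.04 (SE 0.14, adjusted p = 7.32e-05) and 2.52 (SE 0.18, adjusted p = 3.77e-06) with VWF and 2.18 (SE 0.13, adjusted p = 5.88e-08) and 2.58 (SE 0.17, adjusted p = 1.38e-06) with LPS. Of its sequence, 35.9% in windows of 100 bases also occurs in other genes, most of all in C1rb, which was not tested. Its partner protease gene C1s1 was below the filter, with 0.201 ± 0.172 CPM in controls, 3.09 ± 1.18 CPM with VWF and 0.932 ± 0.481 CPM with LPS at 16 h, as was C4b, with 0.334 ± 0.148, 0.310 ± 0.122 and 1.65 ± 0.479 CPM. C1s1 shares 17.4% of its windows with other genes, most of all with the antisense transcript Gm16567, and C4b 15.2%, most of all with C4a.

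Among regulators, Cd59a, which encodes an inhibitor of the membrane attack complex, fell with LPS at 16 h (−1.17, SE 0.35, adjusted p = 0.0188). Cr1l, which codes for the rodent membrane regulator Crry, was not called in any of the 4 comparisons, with log2 fold changes of 0.24 and −0.064 for VWF and 0.62 and 0.25 for LPS.

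Among the other receptors, C5ar2, the second C5a receptor, fell with VWF at 3.5 h, from 9.19 ± 1.67 to 3.51 ± 0.379 CPM (−1.46, SE 0.15, adjusted p = 6.81e-06), where C5ar1 was not called. With LPS at 3.5 h it measured 7.37 ± 1.43 CPM (−0.36, SE 0.17, adjusted p = 0.0806), and at 16 h it was below the filter, with 7.67 ± 0.740 CPM in controls, 7.95 ± 0.809 with VWF and 2.38 ± 0.487 with LPS. Itgam, which encodes the αM chain of complement receptor 3, rose with VWF at 16 h, from 177 ± 18.4 to 433 ± 31.6 CPM (1.18, SE 0.09, adjusted p = 5.74e-06), and measured 238 ± 22.5 CPM with LPS (0.39, SE 0.10, adjusted p = 0.00658). Of its exon length, 68.7% is also annotated as Gm49368. Its partner Itgb2 was not called in the 4 comparisons, with 0.28 for VWF and 0.066 for LPS at 16 h. With LPS at 16 h, Itgax, the αX chain of complement receptor 4, fell (−2.26, SE 0.22, adjusted p = 1.88e-05), as did Cd93 (−2.22, SE 0.13, adjusted p = 5.77e-07) and C1qbp, whose mitochondrial product can bind C1q (−1.65, SE 0.10, adjusted p = 6.20e-07).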

How the data were processed

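Bulk RNA sequencing covered 28 cultures, grouped by the treatment and time in their labels. STAR was run against GRCm38 by the authors, who deposited raw counts for each gene. Which annotation and strand setting they used, and what became of multi-mapped reads, is not given in the sources used.

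TPM was computed from the counts and GENCODE exon lengths (held for 30143 of 30159 genes with counts). Genes reaching 10 TPM in at least 1 culture of a comparison were fitted with edgeR 4.0.16 (R 4.3.3; TMM factors, robust quasi-likelihood, Benjamini-Hochberg adjustment over all genes kept). The script was tested on simulated data. Alternatives were DESeq2 1.42.0, other scalings and filters, all groups in 1 fit, the replicate number as a block, no fold threshold and leaving out cultures. CPM uses TMM factors of all 28 cultures, and log2 CPM a prior count of 2.

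As a check of pairing, deviations of same-numbered cultures from their group means were correlated: all 4 pairs of VWF and LPS at 16 h exceeded 0.1 (0.159 to 0.781), and in no other comparison did all pairs do so. No 2 cultures were duplicates (lowest chi-square per degree of freedom 24.9 over 52 pairs). The members and all lists were chosen with earlier results of these data known. Named were the 9 members, the 3 genes most correlated with each, the other complement genes called against control, and 8 genes of that list whatever their values. Some genes that this rule names are not reported here, although the counts include them. Intervals cover counting error only, since reads without molecular identifiers are not independent molecules. P values set the difference between groups against the spread between cultures, which may not be a spread between mice, since the mouse of each culture is not given.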

Additional observations from a re-analysis of the deposited data

Results flagged for a closer look

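A culture far from the others of its group was looked for in 54 combinations of a member and a group with Dixon's ratio, the gap to the nearest culture over the range of the group, and chance gives about 1 in 20. Control 16 h replicate 5 stood apart in 2 members: C1qa was the highest of its group (ratio 0.858, 1327 CPM against a group median of 586 CPM) and C3 the lowest (ratio 0.795, 2.08 CPM against 12.2 CPM). Control 16 h replicate 4 held the only 2 counts of Cfb in its group (ratio 1.0).

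The effect of an agonist differed between 3.5 h and 16 h, in the interaction term of the edgeR fit at an adjusted p below 0.05, in 9 cases, whatever the size of the difference. The share of all genes that meet this criterion is not given here. For VWF the differences on the log2 scale, later minus earlier, were 1.19 (SE 0.40, adjusted p = 0.028) for C1qa and 0.67 (SE 0.18, adjusted p = 0.00568) for C1qb. They were 0.70 (SE 0.21, adjusted p = 0.0124) for C1qc, 0.93 (SE 0.19, adjusted p = 0.000583) for Cfp and 0.58 (SE 0.15, adjusted p = 0.00494) for C3ar1. For LPS they were 2.85 (SE 0.61, adjusted p = 0.000893) for C3, 0.56 (SE 0.20, adjusted p = 0.025) for Cfp, 1.47 (SE 0.15, adjusted p = 4.17e-07) for C3ar1 and −1.57 (SE 0.18, adjusted p = 1.23e-06) for C5ar1.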

How the results depend on the processing

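Of 1608 values of 88 member results under the alternatives, 1543 kept their direction and their side of the thresholds, 15 lost a call, 27 gained one and 23 changed sign, none of the last with a called value. Without the fold threshold, the number of members called went from 1 to 2 and 4 to 7 for VWF against control at 3.5 h and 16 h, from 1 to 6 for LPS against control at 3.5 h, from 0 to 4 and 3 to 6 for VWF against LPS at 3.5 h and 16 h, and from 1 to 3, 3 to 7 and 0 to 5 for the later against the earlier time with VWF, LPS and in controls. For the change of the VWF effect with time it went from 1 to 5, and was 2 with DESeq2 or library size only and 0 with no filter or the replicate block. The share of all genes called under each alternative is not given here, so the counts of members under the alternatives cannot be set against it. With no filter or all groups in 1 fit, 2 members were called for either agonist at 3.5 h, with edgeR's own filter 2 for LPS, and in controls over time 1 with no filter or edgeR's own filter. Leaving out 1 culture gave 0 to 1 calls for VWF over time (0 without VWF 16 h replicate 3) and for controls over time, 2 to 5 for VWF against LPS at 16 h (5 without LPS 16 h replicate 4) and 0 to 2 for the change of the VWF effect. Signs turned with library size only for VWF against control at 3.5 h (C1qb −0.026, C1qc −0.12, Cfp −0.090), LPS against control at 3.5 h (C1qb −0.042, C1qc −0.086, Cfp −0.14, C5ar1 −0.063) and 16 h (C1qc −0.24), VWF against LPS at 3.5 h (C1qb 0.021, Cfp 0.054) and VWF over time (C1qb 0.045, C3ar1 0.024). They also turned for Cfp with VWF over time (−0.034 with no filter, −0.012 with edgeR's own), C3ar1 with LPS at 3.5 h (0.018 with edgeR's own filter) and C1qa in the change of the LPS effect (0.30 with the replicate block). Leaving out 1 culture gave −0.13 to 0.012 for C1qb, −0.032 to 0.076 for Cfp and −0.11 to 0.017 for C3ar1 with VWF over time, and −0.42 to 0.26 for C1qa in the change of the LPS effect. The cause was not tested. With the replicate block, Cfp was called with LPS at 16 h (1.07), Serping1 in the change of the LPS effect (1.27) and C1qa between VWF and LPS at 16 h (1.12), and C1qa was not called in the change of the VWF effect (1.19); it changed no other call. Whether same-numbered cultures share more than a number is not given for any comparison. Without both Control 16 h replicate 5 and LPS 16 h replicate 4, an alternative chosen after seeing the data, 6 members were called with LPS at 16 h. Low counts limit Cfb and Serping1, and 4 or 5 cultures a group limit all tests.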
